A study of Caenorhabditis elegans with 2 samples.

Results

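The genes described here encode the neuropeptide precursors and insulin-like peptides of Caenorhabditis elegans, examined for binding by the zinc-finger transcription factor LSY-2. They were chosen by name, as the protein-coding genes called flp, nlp or ins followed by a number, plus daf-28, and 141 of the 19973 protein-coding genes of the WBcel235 annotation qualified. Of these, 31 were FMRFamide-like peptide genes (flp), 71 were neuropeptide-like protein genes (nlp), and 39 were insulin-like peptide genes, counting daf-28 with the 38 ins genes.

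Neuropeptide genes encode precursor proteins that are cut into short peptides, packed into dense-core vesicles and released to act mostly on G protein-coupled receptors. Insulin-like peptides instead act on the insulin receptor homologue DAF-2, some as agonists and some as antagonists, and through it tie growth and larval arrest to food. Several nlp genes, among them the nlp-29 cluster, are known as antimicrobial peptide genes of the epidermis rather than of neurons. LSY-2 itself is known for its part in the left-right difference between the ASE taste neurons, in which some flp genes are expressed.

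Binding was measured by chromatin immunoprecipitation and sequencing (ChIP-seq) in whole larvae of mixed sex, starved in the first larval stage (L1) after bleaching. All larvae were of strain OP367, which carries unc-119(tm4063) on chromosome III and the transgene wgIs367 with eGFP-tagged LSY-2. Fragments spanned 150 to 350 bp. The single group held 2 biological replicates per the labels, so there was no second condition to compare, and 1 strain stands for the tagged protein. Whole larvae were used, so binding in a few cells and weaker binding in many cells cannot be told apart, and no untagged larvae were analysed here.

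The pooled list and each replicate list held 30000 regions, background included, and the list that passed the authors' reproducibility threshold held 6850 peaks. Each peak carries the authors' signal value, of a scale that the sources used here do not give. Peaks are compared with each other only within a list, taking the pooled and thresholded lists together. Between replicate lists only the ratio at the same peak is read. Thresholded peaks had a median signal of 169, a lowest of 68.8 and a highest of 24270, and rank 1 is the strongest. Of these peaks, 6787 had a region in both replicate lists. Set against each other on the log2 scale, replicate 2 was a median of 0.20 above replicate 1, with an SD of 0.54 over peaks, a fold of 1.45. For the 1651 of them with a signal under 100 the SD was 0.71, a fold of 1.64. Read depth per replicate is not given in the sources used here, so no counting interval could be set.

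Few peptide genes had an LSY-2 peak at their 5′ end. A thresholded summit (the highest point of a peak) lay between 1000 bp upstream and 200 bp downstream of the 5′ end of 7 of the 141 genes, or 4.96%. Over all protein-coding genes the share was 21.1% (4216 genes). The 7 were 1 of 31 flp genes (3.23%), 5 of 71 nlp genes (7.04%) and 1 of 39 insulin-like genes (2.56%). They were nlp-4, ins-39, flp-23, nlp-31, nlp-34, nlp-24 and nlp-33. Since nlp-31 and nlp-34 share a peak, the 7 genes held 6 distinct summits, and 4 of the 6 had a signal below the median of all thresholded peaks.

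**Figure D1:**
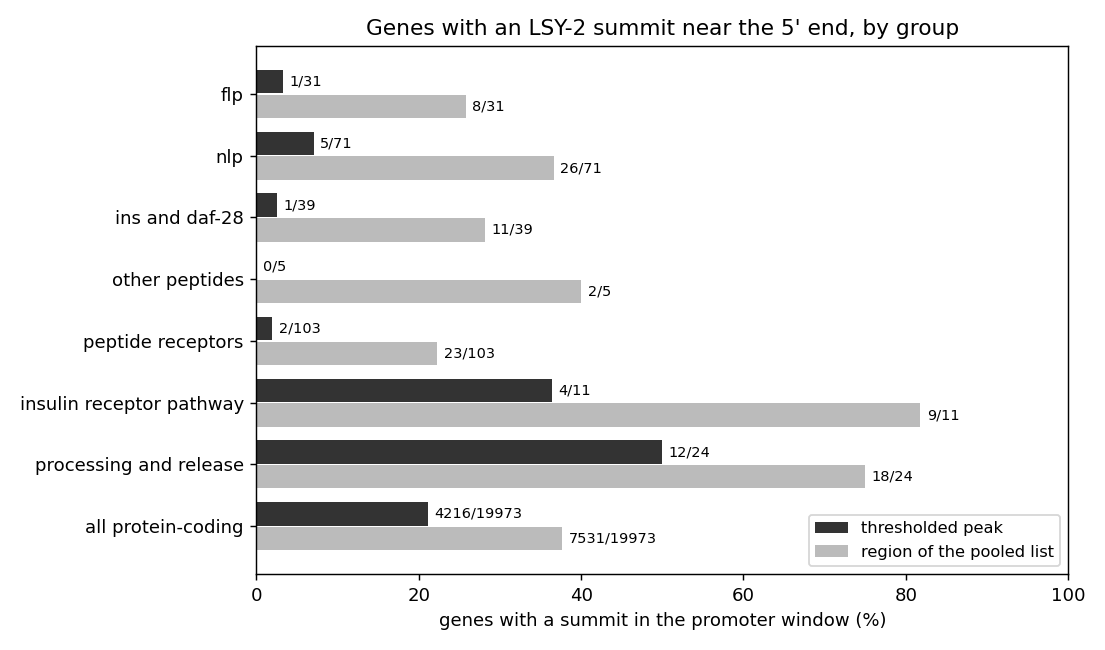
Percent of the genes of each group with a thresholded summit (dark bars) or a pooled-list summit (pale bars) in the promoter window, with counts beside the bars. The flp, nlp and insulin-like genes stand at 3.23%, 7.04% and 2.56% for thresholded peaks, and all protein-coding genes at 21.1%.

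The pooled list, which also holds background regions, gave a smaller gap. It placed a summit in the window of 45 of the 141 genes (31.9%), against 37.7% of all protein-coding genes. By family these were 8 flp genes (25.8%), 26 nlp genes (36.6%) and 11 insulin-like genes (28.2%). Both replicate lists had a summit in the window of 30 peptide genes (21.3%), against 32.5% of all protein-coding genes. The remaining 96 of the 141 genes had no pooled region in the window. Of these, 12 had a region in a replicate list alone, and 84 had none in any list (21 flp, 37 nlp and 26 insulin-like genes). Of all 19973 protein-coding genes, 12442 had no pooled region in the window. A region in a replicate list alone was found for 1635 of them, and 10807 had none in any list. Having no region in any list was thus common over all genes too.

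The regions listed at peptide genes were mostly weak. The strongest pooled region in the window had a median signal of 24.6 over the 45 peptide genes (range 14.0 to 4359), and of 94.1 over all genes with one. The 38 peptide genes with a pooled region but no thresholded peak had a median of 22.5 (range 14.0 to 47.4), against 27.0 for all 3315 protein-coding genes of that kind. The whole pooled list had a median of 27.7 and a lowest value of 13.6. Most regions at peptide genes thus lay in the lower part of the pooled list.

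**Figure D2:**
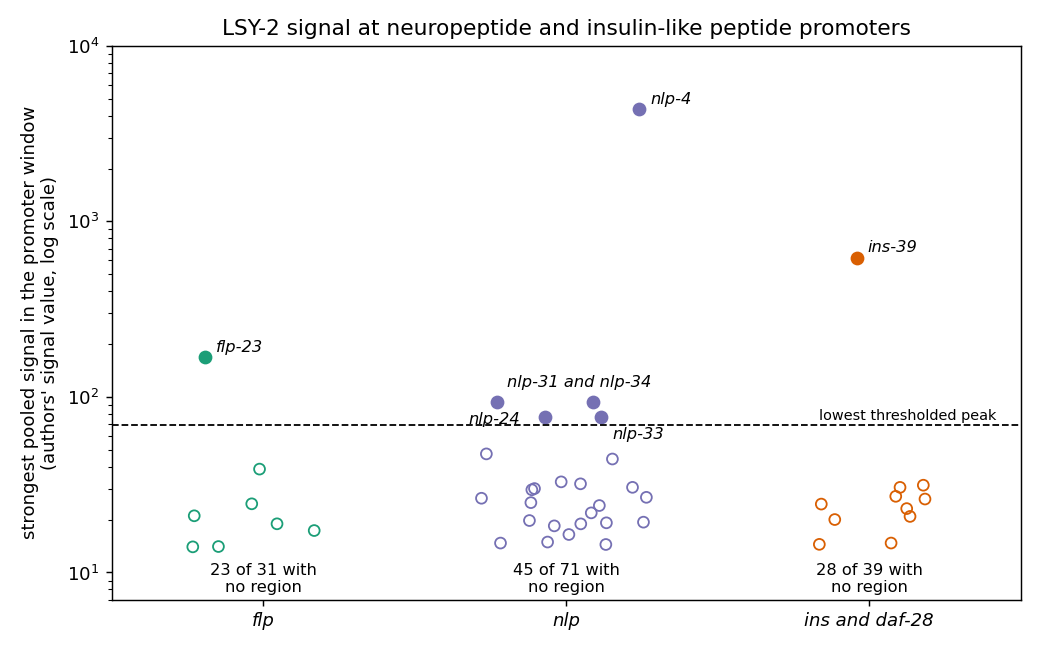
Strongest pooled-list signal in the promoter window of each peptide gene with a region there (authors' signal value, log scale), by family. Filled points are the 7 genes with a thresholded peak, open points the 38 with a pooled region only, and the dashed line is the lowest thresholded signal, 68.8. Points are spread sideways only for legibility.

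By far the strongest of these peaks was at nlp-4, a neuropeptide-like gene (WBGene00003742, chrI:10517321-10518055, minus strand). Its peak spanned chrI:10517859-10518326 with the summit 48 bp upstream of the 5′ end, between genes, and ranked 124 of 6850 with a pooled signal of 4359. Replicate 1 gave 2284 (rank 119) and replicate 2 gave 2085 (rank 126). The replicates differed by 0.13 on the log2 scale, less than the SD of 0.54 over all peaks, while the nlp-4 signal was 7.03-fold that of the next peptide gene, ins-39. The same summit lay 276 bp upstream of exos-3, a subunit gene of the RNA exosome that starts 323 bp away in the opposite direction, so the peak is shared by both promoter windows but nearer to nlp-4. A further thresholded peak lay 64 bp past the 3′ end of nlp-4, with a pooled signal of 1175 and replicate signals of 545 and 628, and the nearest 5′ end to it was that of the snoRNA gene F59C6.15, 107 bp away.

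The insulin-like gene with a peak was ins-39 (WBGene00017668, chrX:1343758-1344421, minus strand). The peak spanned chrX:1344820-1345209, with its summit 635 bp upstream, a pooled signal of 620 and rank 772. Replicate signals were 315 and 302, which differ by 0.06 on the log2 scale. No other protein-coding gene starts in its window, and the gap to the next gene upstream is 13349 bp. The short window of 500 bp upstream to 100 bp downstream leaves it out.

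The flp gene with a peak was flp-23 (WBGene00017693, chrIII:8650767-8652194, plus strand). Its peak spanned chrIII:8650200-8650575, with the summit 379 bp upstream and a pooled signal of 169, just under the median of all peaks, at rank 3435. Replicate signals were 83.3 and 82.2. The summit lay inside a tRNA gene on the opposite strand (WBGene00023002, chrIII:8650381-8650452), 64 bp into it. Of all thresholded summits, 137 (2%) lay inside 1 of the 612 annotated tRNA genes. The part of the tRNA gene in the signal at flp-23 was not tested.

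The other 4 genes lie on chromosome V and had weak peaks. At nlp-31 (WBGene00003769, chrV:3980055-3980622, plus strand), an antimicrobial peptide gene of the nlp-29 cluster, the summit lay 8 bp inside the first, untranslated exon. Its pooled signal was 93.9 at rank 5440, with 34.01 in replicate 1 and 57.3 in replicate 2. This is a 1.69-fold difference between replicates, or 0.75 on the log2 scale. Peaks under 100 as a set also leaned toward replicate 2, with 0.23 as their median log2 ratio. The nlp-31 ratio lay above that median by less than the SD of 0.71 for such peaks. The peak chrV:3979875-3980250 also fell in the window of nlp-34 (WBGene00015046, chrV:3978825-3979134, minus strand), whose 5′ end is 929 bp away, so for nlp-34 it is a peak nearer to a neighbour.

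At nlp-24 (WBGene00003762, chrV:11616376-11616828, plus strand), which encodes a precursor of the same wider peptide family, the peak spanned chrV:11615937-11616312. Its summit lay 251 bp upstream, with a pooled signal of 77.4 and replicate signals of 38.5 and 42.8. At nlp-33 (WBGene00003771, chrV:11147346-11147737, plus strand) the peak spanned chrV:11147096-11147471 with the summit 62 bp upstream. Its pooled signal was 76.8 and its replicate signals 29.6 and 39.4, and the window is shared with T19C4.24, which starts 276 bp from the summit on the other strand. The nlp-31 signal was 1.22-fold that of nlp-33, less than the replicate spread of such peaks, so these weak peaks cannot be ranked among themselves. The nlp-24 and nlp-33 peaks also lie just inside the threshold, at ranks 6293 and 6330 of 6850. The peptide gene with the strongest region outside the threshold, nlp-35, had 47.4.

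**Figure D3:**
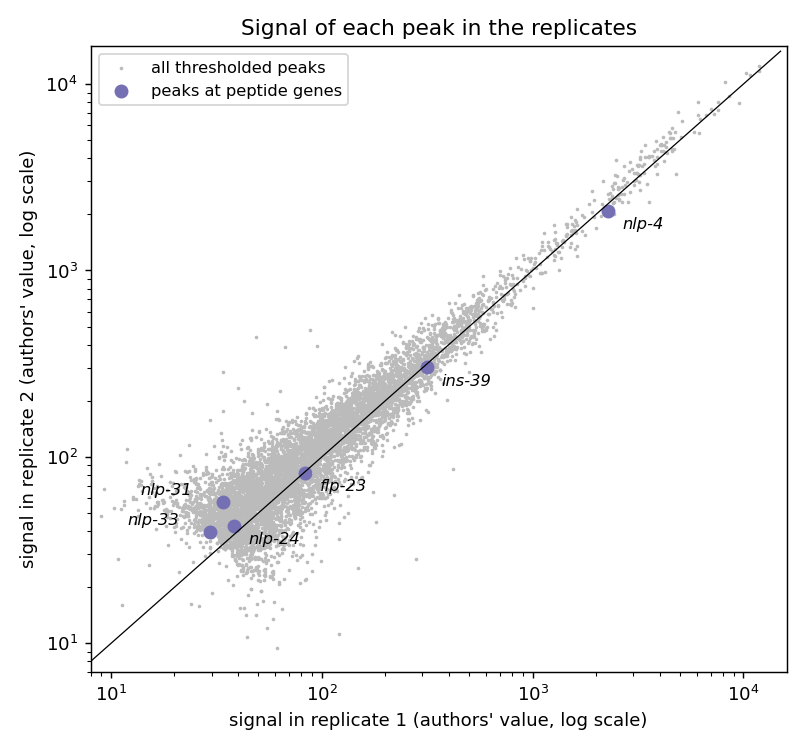
Signal of each thresholded peak with a region in both replicate lists, replicate 1 against replicate 2 (authors' signal values, log scales), with the 6 peaks at peptide genes as large points and the line of equal signal. The peaks at nlp-4, ins-39 and flp-23 lie near the line, and those at nlp-31 and nlp-33 are higher in replicate 2.

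The bases around 5 of the 6 peaks are shown because their summits lie in different settings: open intergenic sequence, a tRNA gene, or the start of a transcript. Each run holds 101 bases of the RefSeq WBcel235 genome, 5′ to 3′ on the strand of the gene. Capitals mark the 11 bases centred on the summit for nlp-24, nlp-33 and ins-39, and the 58 bases inside the tRNA gene for flp-23. For nlp-31, where the summit is in the transcript, the 101 bases before the 5′ end are given, with no capitals. The runs are chrV:11616075-11616175 for nlp-24, chrV:3979954-3980054 for nlp-31, chrV:11147234-11147334 for nlp-33, chrX:1345006-1345106 for ins-39 and chrIII:8650338-8650438 for flp-23.
ins-39: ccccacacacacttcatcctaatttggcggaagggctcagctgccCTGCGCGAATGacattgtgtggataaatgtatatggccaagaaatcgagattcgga
flp-23: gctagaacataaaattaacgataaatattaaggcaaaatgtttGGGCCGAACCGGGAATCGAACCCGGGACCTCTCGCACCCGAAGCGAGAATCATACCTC
nlp-24: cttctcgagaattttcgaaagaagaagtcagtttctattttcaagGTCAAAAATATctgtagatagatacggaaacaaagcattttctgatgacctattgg
nlp-31: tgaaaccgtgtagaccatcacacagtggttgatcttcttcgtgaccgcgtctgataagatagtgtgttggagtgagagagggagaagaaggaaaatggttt
nlp-33: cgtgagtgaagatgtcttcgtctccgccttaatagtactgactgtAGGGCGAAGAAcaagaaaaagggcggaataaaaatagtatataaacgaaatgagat

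Over all 6850 summits, the 101 bases around a summit had a median GC content of 43.6%, with quartiles of 38.6% and 49.5%. The nlp genes lay on the lower side, with 33.7% at nlp-24, 36.6% at nlp-31, 39.6% at nlp-33 and 41.6% at nlp-4. Higher values were found at flp-23, with 46.5%, and at ins-39, with 49.5%. Short words were searched on both strands in these windows: GAGAG, found in 42.5% of all summit windows, TATAA in 10.1% and CGCG in 31%. GAGAG was present at nlp-31 and flp-23, TATAA at nlp-33 and CGCG at ins-39, and nlp-4 and nlp-24 held none of the words. These matches describe the sequences and set no site apart.

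The spacing of these genes differs from that of the genome, and the share with a peak moved with it. No other protein-coding 5′ end lay in the window of 129 of the 141 peptide genes (91.5%), compared with 78.7% of all protein-coding genes. The median gap to the next gene upstream was 2540 bp (5185 bp for flp, 2293 bp for nlp and 1999 bp for insulin-like genes), against 936 bp over all genes. Among genes without such a neighbour, 3 of 129 peptide genes (2.33%) had a thresholded summit, namely flp-23, nlp-24 and ins-39, against 15% of all such genes. Among genes with one, 4 of 12 peptide genes (33.3%) had a summit, namely nlp-4, nlp-31, nlp-34 and nlp-33, against 43.6% of all such genes. The share was thus below that of all genes among those without a neighbour, while 4 of 12, with nlp-31 and nlp-34 on the same peak, is too few to set apart from 43.6%.

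When each summit was given only to the nearest protein-coding 5′ end, 6 peptide genes kept a peak, all but nlp-34, against 16% of all protein-coding genes. On chromosome X, 1 of 34 peptide genes had a peak (2.94%), beside 15.9% of all genes there, and on the autosomes 6 of 107 had one (5.61%), beside 21.9%. None of the 28 peptide genes on chromosome II or the 19 on chromosome IV had a thresholded peak in the window, while 8 and 4 of them had a pooled region. The shares of all genes on chromosomes II and IV were not computed singly, so these counts only describe where the peaks lay.

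**Figure D4:**
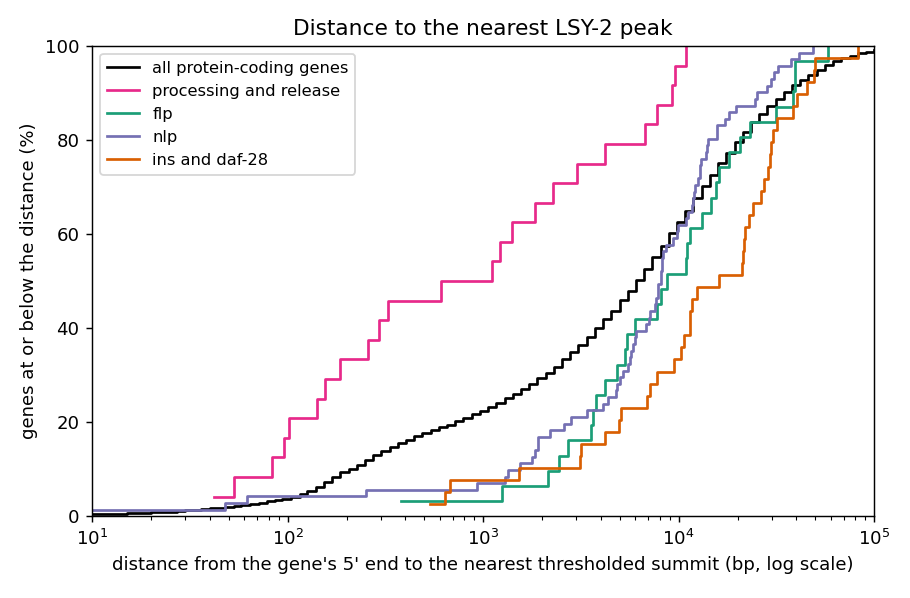
Cumulative percent of genes by the distance from the 5′ end to the nearest thresholded summit on either side (bp, log scale). The medians lie at 8759 bp for flp, 8142 bp for nlp, 16024 bp for insulin-like, 858 bp for processing and release genes and 5998 bp for all protein-coding genes.

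Distance to the nearest thresholded summit, wherever it lay, was also larger for the peptide genes. Its median was 9426 bp for the 141 peptide genes (quartiles 4824 and 19605 bp) and 5998 bp for all protein-coding genes. Insulin-like genes lay farthest away, with a median of 16024 bp, and 8 of the 39 (20.5%) had a summit within 5000 bp. For flp and nlp genes these counts were 10 (32.3%) and 20 (28.2%), and for all protein-coding genes 46%. The gene of the set farthest from any peak was daf-28, at 82632 bp.

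A window of 2000 bp upstream to 500 bp downstream raised the count to 11 peptide genes, beside 27.1% of all genes. The 4 gained were nlp genes, and each gained summit was nearer to the 5′ end of another gene, coding or not. For nlp-71 the summit lay 1771 bp upstream (signal 561; replicates 286 and 276) and 125 bp from exos-2, another RNA exosome gene. For nlp-12, which encodes cholecystokinin-like peptides, it lay 1295 bp upstream (signal 491; replicates 267 and 227) and 356 bp from emr-1, the emerin gene. For nlp-76 the summit, 1337 bp upstream with a signal of 274 (replicates 126 and 146), fell in a tRNA gene (WBGene00009555) within an intron of nhr-17. For nlp-30 the peak was that at nlp-31, 1917 bp away.

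In the window of 1000 bp upstream to 200 bp downstream, the 5 genes with the strongest regions but no thresholded peak were nlp-35, nlp-29, flp-9, nlp-8 and nlp-41. The region at nlp-35 had a pooled signal of 47.4, with 18.1 and 25.3 in the replicates, and lay 121 bp inside the gene in coding sequence. At nlp-29, the pathogen- and wound-induced antimicrobial gene, the signal was 44.3 (21.6 and 27.7) at 139 bp upstream. The region at flp-9 had 38.8 (18.4 and 21.04) at 198 bp upstream, that at nlp-8 had 32.8 (14.5 and 16.9) at 27 bp and that at nlp-41 had 32.0 (12.1 and 17.2) at 268 bp. All 5 were present in both replicate lists but under the lowest thresholded signal of 68.8.

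No list held a region in the window of flp-4 or flp-20, a pair of flp genes known from the ASE neurons. At flp-4 the closest pooled region in the gene lay 397 bp inside, in an intron, with a signal of 24.2 (10.6 and 16.3 in the replicates). The nearest thresholded summits were 3633 bp away from flp-4 and 2137 bp away from flp-20.

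Among the insulin-like genes with known roles, daf-28, which encodes a DAF-2 agonist, had a pooled region 181 bp upstream with a signal of 30.5, and 15.9 and 13.9 in the replicates. A weaker region of 17.8 lay 30 bp inside the gene and overlapped the same replicate regions. At ins-18, an antagonist gene, a region of 26.2 lay 713 bp upstream, with 20.9 in replicate 2 and no region in replicate 1. The agonist genes ins-4 and ins-6 and the antagonist gene ins-1 had no region in the window in any list. For these 3 the nearest thresholded summits were 29527, 26432 and 11396 bp away.

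One insulin-like gene, ins-14 (chrII:6745435-6745814), was singled out after its values were seen. It had a region among the 6850 strongest of each replicate but none in the pooled list. Replicate 1 had 36.4 at rank 6474, 277 bp upstream, and replicate 2 had 47.7 at rank 5925, 195 bp upstream. Their summits lay 82 bp apart. The lowest signals among the 6850 strongest regions were 34.04 in replicate 1 and 39.4 in replicate 2. If the 6850 strongest regions of 1 replicate stand in for the thresholded list, insulin-like genes with a summit number 2 (5.13%) in either replicate, ins-39 and ins-14. The nlp genes number 3 in replicate 1 (4.23%) and 5 in replicate 2 (7.04%). Over all protein-coding genes the share is 21.2% in either replicate. In replicate 1 the calls at nlp-31 and nlp-34 (rank 6861) and at nlp-33 (rank 7780) end. There nlp-16 gains one with 44.05 at rank 5497, with no region in replicate 2. Over the whole genome, 5558 such strong regions of replicate 1 had a strong summit of replicate 2 within 100 bp, and 39 of them (0.702%) had no overlapping pooled region.

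Some peptide genes lie in tandem groups. In 7 groups of 3 or more members less than 10 kb apart, 2 of 32 genes (6.25%) had a thresholded summit in the window. The share was 4.96% for all peptide genes, which include these 32, and 21.1% for all protein-coding genes. The 2 genes, nlp-31 and nlp-34, were in the same group and share 1 peak. The 4 insulin-like groups had 7 genes from ins-24 to ins-30 on chromosome I, 3 (ins-11 to ins-13) and 6 (ins-2 to ins-6 and ins-20) on chromosome II, and 3 (ins-21 to ins-23) on chromosome III. Their strongest pooled promoter regions were 20.02 on chromosome I and 23.1 in the larger group on chromosome II, and the other groups had none. The groups nlp-45, nlp-22, nlp-23 and nlp-2 and flp-28, flp-3 and flp-2 on chromosome X had no pooled promoter region either.

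That group was the nlp-29 cluster, with 6 genes over 10.9 kb on chromosome V. Pooled regions lay in the windows of 5 of the 6, all but nlp-30. Their signals were 93.9 for the region shared by nlp-31 and nlp-34, 44.3 at nlp-29, 30.6 at nlp-27 and 14.9 at nlp-28. The nlp-27 region had 20.5 in replicate 1 and 8.96 in replicate 2, and the nlp-28 region overlapped none in either replicate. Signal in the cluster was therefore highest at the end where nlp-31 starts, and the values for nlp-27 and nlp-28 rest on uneven replicates.

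**Figure D5:**
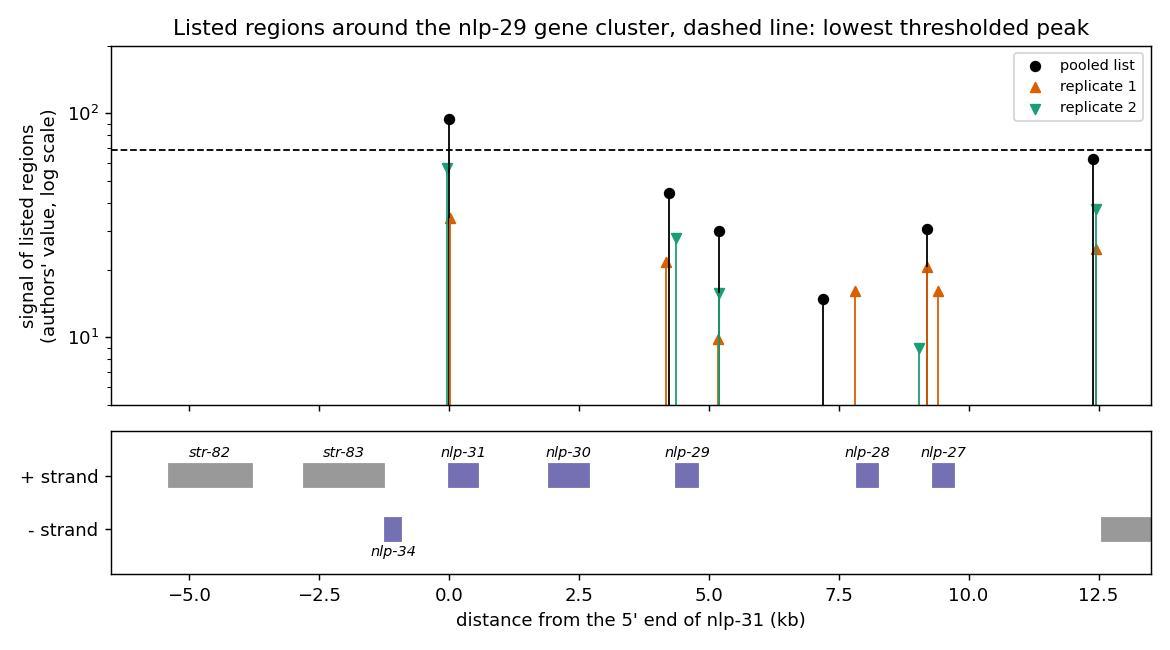
Regions listed across the nlp-29 cluster on chromosome V by distance from the 5′ end of nlp-31 (kb), with their signal in the pooled and replicate lists (authors' values, log scale) and the genes by strand below (peptide genes in purple, other protein-coding genes in grey). The region at nlp-31, 93.9 in the pooled list, is the 1 above the lowest thresholded signal of 68.8, which applies to pooled values only.

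Genes that process peptides and release them had peaks at a larger share than the peptide genes themselves. Of 24 such genes, 12 (50%) had a thresholded summit in the window and 18 (75%) a pooled region. The shares of all protein-coding genes were 21.1% and 37.7%. Thresholded signals ran from 80.3 to 462, with a median of 179. The strongest was at ric-19, which acts in dense-core vesicle maturation, with 462 at 185 bp upstream (234 and 227 in the replicates). Next came unc-108, the Rab2 gene of the same step, with 403 (203 and 208), and sbt-1, the 7B2 chaperone of the proprotein convertase EGL-3, with 380 (175 and 203). The carboxypeptidase E gene egl-21 had 270 (143 and 128), the convertase gene bli-4 had 228 (126 and 98.9), and ida-1, a dense-core vesicle membrane protein gene, had 189 (65.5 and 121). In none of these 6 was another protein-coding gene nearer to the summit. In the promoter window no thresholded summit was found for 12, among them the convertase genes aex-5 and egl-3 and also cpd-2. The long window raised the 12 genes with a peak to 15 (62.5%, beside 27.1% of all protein-coding genes). The 3425 strongest peaks lowered them to 6 (25%, beside 14.6%). The median distance of the 24 genes to a thresholded summit was 858 bp.

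Few receptor genes had a peak: 2 of 103 (1.94%) held a thresholded summit and 23 (22.3%) a pooled region. The shares of all protein-coding genes were 21.1% and 37.7%. The receptor gene npr-23 had 442 at 116 bp upstream, with 184 and 260 in the replicates. At frpr-14 a peak of 240 lay 435 bp upstream but nearer to K07E8.7, with 127 in replicate 2 and no region in replicate 1. Without replicate 2, the count among receptor genes was 1, beside 21.2% of all protein-coding genes. Among the 101 receptor genes without a peak, aex-2, ckr-1 and ckr-2 come first by name. Of 5 other peptide genes outside the flp, nlp and ins names, none had a thresholded summit. Among them pdf-1, a pigment-dispersing factor gene, had a pooled region of 39.5, and lury-1 and ntc-1 had none.

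Downstream of the insulin-like peptides, 4 of 11 genes of the DAF-2 pathway (36.4%) had a thresholded summit and 9 (81.8%) a pooled region. The shares of all protein-coding genes were 21.1% and 37.7%. This count depends on the window: it was 2 with 500 bp upstream to 100 bp downstream (16.6% of all genes) and 8 with 2000 bp upstream to 500 bp downstream (27.1%). It was 3 when each summit went to the nearest protein-coding 5′ end (16%) and 2 with the nearest 5′ end of any biotype (14%). The receptor gene daf-2 itself had a peak of 124 at 113 bp upstream, with 55.6 and 57.4 in the replicates. Stronger peaks lay at the FOXO gene daf-16 (382, at 452 bp upstream) and the kinase gene akt-2 (421, at 709 bp upstream). The phosphatidylinositol 3-kinase genes aap-1 and age-1 and the kinase gene akt-1 had none in the window. These groups are described by counts beside the 21.1% of all protein-coding genes, and no group was tested against another.

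Peaks inside the peptide genes and behind them were also counted. With the window drawn out from 1000 bp upstream to the 3′ end of the gene, 9 peptide genes (6.38%) held a thresholded summit. These include the 7 with a summit in the promoter window (4.96%). Over all protein-coding genes the share went from 21.1% to 25.6%. Their median span of 2027 bp is longer than the 903 bp of the peptide genes. The genes added were nlp-11, with an intron peak of 108.4 (43.3 and 76.9 in the replicates), and flp-15, with an intron peak of 100.7 (48.3 and 49.8). Within 1000 bp past the 3′ end, 8 peptide genes (5.67%) had a thresholded summit, beside 8.35% of all protein-coding genes, and the difference was not tested. The genes with a summit past the 3′ end, like nlp-11 and flp-15, were chosen for naming after their values were seen.

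The strongest 3′ peak was at nlp-40, whose peptide times the defecation rhythm from the intestine, with 1478 at 179 bp past the gene (790 and 697 in the replicates) and no other 5′ end nearer. Behind ins-13 lay summits of 1340, 707 and 299, which were nearest to the spliced leader RNA gene sls-2.2, the noncoding RNA gene C17C3.23 and the gene sls-2.3, at 39, 67 and 55 bp. The peaks behind flp-16 (595), ins-37 (815) and nlp-15 (973) were nearest to romo-1 at 127 bp, the noncoding RNA gene F08G2.13 at 59 bp and smu-1 at 26 bp. Behind flp-23 a peak of 150 lay in another tRNA gene, WBGene00023000. At ins-17 a weak peak of 83.3 lay 19 bp past the end, with 31.6 in replicate 1 and 73.0 in replicate 2. The same replicate 2 region also overlapped a pooled region of 55.6, under the threshold, in coding sequence 460 bp inside the gene. Together with the nlp-4 peak described above, the summits nearest to another gene's 5′ end were those at ins-13, ins-37, flp-16, nlp-15, nlp-4 and flp-23.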

How the data were processed

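ChIP-seq of eGFP-tagged LSY-2 was analysed from the deposited ce11 lists of regions, 1 for each of 2 replicates, 1 pooled and 1 thresholded. Per the deposited README texts, the authors made each replicate list from its own alignments plus a control file, the pooled list from the alignments of both replicates with a control, and the thresholded list from these 3 by an irreproducible discovery rate analysis. Aligner, peak caller and read depth: not given in the sources used here. The deposited signal is a value per region of unstated scale. Peaks were therefore ranked and compared with each other within a list, taking the pooled and thresholded lists together. Between replicate lists only the ratio at the same peak was taken. The deposited −log10 q-values reach a shared ceiling of 4.19, which every member peak had, and were not used for ranking. The ce10 lists were not used.

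Summits were start plus offset, written 1-based, and genes were those of Ensembl release 115 on WBcel235. The promoter window ran, along the gene's strand, from 1000 bp before its 5′ end to 200 bp after it, and a gene with a summit there had a peak. A replicate's signal at a peak is that of its overlapping region with the nearest summit. With 1 group and named genes, no test was run, and replicate differences were set against the SD of the log2 replicate ratio over all peaks. The members and the 4 lists of pathway genes, whose names all matched, were chosen with earlier results of these data known. Genes were named if they had a thresholded promoter peak, gained one in the long window, were among the 5 strongest without one, were set by name (daf-28, ins-1, ins-4, ins-6, ins-18, flp-4, flp-20, nlp-29), or led their pathway list, with up to 6 with a peak and the first 3 by name without, plus the genes nearest to a member peak. The values of 1 gene of the DAF-2 pathway list are not reported here. Counting was tested on simulated peaks. Alternatives were a shorter and a longer window, the nearest gene only, single replicates, the 3425 strongest peaks, transcript starts and peak overlap. The window to the 3′ end and the count behind it were chosen after seeing the data. Tools were Python 3.11.15, pandas 2.3.3, numpy 2.4.6 and matplotlib 3.10.9.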

Additional observations from a re-analysis of the deposited data

How the results depend on the processing

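The count of 7 peptide genes with a thresholded promoter peak (4.96%, beside 21.1% of all protein-coding genes) moved with the settings. It rose to 11 (7.8%, beside 27.1%) with the window of 2000 bp upstream to 500 bp downstream. Among the 3425 strongest peaks it fell to 2, nlp-4 and ins-39 (1.42%, beside 14.6%). Under the other alternatives it ran from 5 to 9, beside 14% to 25.6% of all genes. With 1 replicate's 6850 strongest regions it was 6 to 8, beside 21.2%. In replicate 1 alone nlp-31, nlp-33 and nlp-34 were lost and ins-14 and nlp-16 gained, and in replicate 2 alone ins-14 was gained. The region of nlp-31 and nlp-34 missed narrowly in replicate 1, at rank 6861 with 34.01 against a lowest kept signal of 34.04. At nlp-33 the replicate 2 region, with 39.4 at rank 6850, was the last one kept. The pooled count of 45 became 32 with the short window (22.7%, beside 29% of all protein-coding genes). With the long window it was 64 (45.4%, beside 45.7%), so the pooled shares were nearly equal there. In single replicates it was 42 (29.8%, beside 38.5%) and 44 (31.2%, beside 39.3%). The count of peaks nearer to another gene, 1, became 0 with the short window, 4 with the long one and 2 with genes of every biotype. No peak was left at ins-39 or nlp-34 in the short window. No paired analysis was possible because the single group gave no comparison. Read depth is unknown, so weak regions and absent ones cannot be separated by counting error.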
